A study of Homo sapiens with 16 samples.

Results

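The 6 gene loci in human lung fibroblasts described here, CXCR4, KDR, F3, TMEM233, SCGB2A2 and COL6A5, were examined through their open chromatin under low oxygen. They were selected on measured peak counts, as the loci with the largest log2 rises in number of ATAC-seq peaks with hypoxia in cells whose Raf was off, among 19970 protein-coding loci of which 15116 had enough peaks to be tested. All 6 passed that filter. A locus spans the gene body and 10 kb to either side, and a peak belongs to it when its summit lies there. ATAC-seq marks open chromatin by where the Tn5 transposase can insert. The cells were IMR90, a line of lung fibroblasts. They were infected with a retrovirus that encodes △B-RAF:ER, a B-RAF kinase fused to the estrogen receptor, and given 4-hydroxy-tamoxifen (4-OHT). There were 4 groups of 4 replicate libraries: Raf-inactivated cells in hypoxia (0.5% O2) and in normoxia, and Raf-activated cells in hypoxia and in normoxia. The labels give the retrovirus and 4-OHT for every sample alike and do not say how the Raf-inactivated cells differed, nor how long hypoxia lasted. Whether replicates came from different cultures is not stated, so a p-value here reflects library-to-library spread that may be purely technical. In a bulk library, more cells with an open site and a site more open in each cell cannot be told apart.

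Cells short of oxygen stabilise the HIF transcription factors, which bind a short core motif in DNA and switch on genes for new vessels, glycolysis and cell migration. CXCR4 encodes the receptor of the chemokine CXCL12 and is a known HIF target. KDR encodes VEGFR2, the main signalling receptor of VEGF-A on endothelial cells. F3 encodes tissue factor, the membrane receptor of factor VII that starts blood coagulation and that fibroblasts around vessels carry. TMEM233 encodes a small membrane protein of the dispanin (CD225) family, SCGB2A2 encodes mammaglobin-A, a secreted protein best known from breast epithelium, and COL6A5 encodes the alpha-5 chain of collagen VI, a microfibril of the matrix. Sustained Raf signalling drives fibroblasts into senescence, and the study asked how hypoxia changes accessibility in that state.

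The libraries held 169287 to 206757 distinct peaks. Depth is not stated in the files, and the background pileup recovered from the lists stands in for it. It averaged 4.78 ± 0.19 in hypoxic and 3.23 ± 0.24 in normoxic Raf-inactive cells, and 7.31 ± 0.75 in hypoxic and 6.75 ± 0.46 in normoxic Raf-active cells (SD, n = 4 each). A site without a peak was therefore not called at that depth, which is not the same as closed. The lowest summits listed stood 2.16 to 2.99 times above a library's background. All 18 fibroblast marker loci had peaks in every library, but so did 16 of 18 endothelial, 15 of 17 blood and 16 of 18 epithelial ones, so peak presence does not separate cell types here.

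The promoters of CXCR4, KDR and F3 are shown because a region of called peaks lay over each of them, and its height can be followed through the 4 groups. They are the 250 bases before each gene's start in RefSeq (GRCh38.p14, the hg38 assembly), read 5′ to 3′ on the gene's strand, which is the minus strand for all 3. Capitals mark the HIF core motif (ACGTG or GCGTG) and the AP-1 motif TGANTCA, both searched on both strands. These positions are chr2:136118150-136118399 for CXCR4, chr4:55125596-55125845 for KDR and chr1:94541760-94542009 for F3. The median summit of the region lay 54 bases before the start at KDR and 183 at F3, within the bases shown. At CXCR4 it lay 359 bases before the start, outside them.

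CXCR4: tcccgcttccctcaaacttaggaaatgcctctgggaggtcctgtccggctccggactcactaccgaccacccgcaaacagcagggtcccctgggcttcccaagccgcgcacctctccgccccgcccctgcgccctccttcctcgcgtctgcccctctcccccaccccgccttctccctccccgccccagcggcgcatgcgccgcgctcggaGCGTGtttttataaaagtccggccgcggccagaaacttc
KDR: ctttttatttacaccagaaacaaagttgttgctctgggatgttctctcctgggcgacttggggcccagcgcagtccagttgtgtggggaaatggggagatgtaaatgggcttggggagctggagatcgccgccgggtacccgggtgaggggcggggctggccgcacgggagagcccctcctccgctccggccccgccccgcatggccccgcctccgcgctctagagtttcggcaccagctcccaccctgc
F3: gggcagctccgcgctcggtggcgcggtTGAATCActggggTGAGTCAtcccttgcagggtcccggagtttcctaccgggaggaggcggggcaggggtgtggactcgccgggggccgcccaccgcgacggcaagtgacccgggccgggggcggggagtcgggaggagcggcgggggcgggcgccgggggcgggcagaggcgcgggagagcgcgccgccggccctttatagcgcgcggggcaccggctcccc

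The CXCR4 window held 1 GCGTG, 39 bases before the start, and no AP-1 motif. The F3 window held 2 AP-1 motifs, 223 and 210 bases before the start, and no HIF core. Neither motif occurred in the KDR window. Of 35116 promoter windows of this length in the table, 43.2% held a HIF core and 6.57% an AP-1 motif. The SCGB2A2 window, on the plus strand at chr11:62269908-62270157, held 1 AP-1 motif and no HIF core, and no peak region lay over it in any library. TMEM233 and COL6A5 have no entry in the promoter table. A match is only a run of letters and not a bound site.

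The contrast that chose the 6 loci, hypoxia in Raf-inactive cells, is given as a description with no test. In that contrast 6.39% of all tested loci were called as gaining peaks and 16.5% had every hypoxic library above every normoxic one. The 6 had the largest log2 changes among 851 such loci whose groups did not overlap. Their log2 changes, on the scale of log2 of scaled peaks plus 1, were 1.98 for CXCR4, 1.52 for COL6A5, 1.45 for KDR, 1.37 for F3, 1.29 for TMEM233 and 1.29 for SCGB2A2. The choice ended in a smooth run of values, since the next loci were NAGK at 1.24 and NAMPT at 1.21. Background coverage was also higher in the hypoxic group of that contrast, as given above. With the listed peaks of every library thinned to the lowest background, the 6 changes lay between 1.26 and 1.77. Thinning drew down the summit pileup of peaks already listed and kept those at a -log10 p of at least 5. Peaks were not called anew, so their widths and splits stayed as at full depth. Other ways of counting gave smaller values at some loci. Among peaks of at least 5-fold enrichment CXCR4 changed by 0.50, COL6A5 by 0.48, F3 by 0.54 and KDR by 0.65. With 2 kb on each side SCGB2A2 changed by 0.0, and with kb covered F3 changed by 0.32 and KDR by 0.63.

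**Figure D1:**
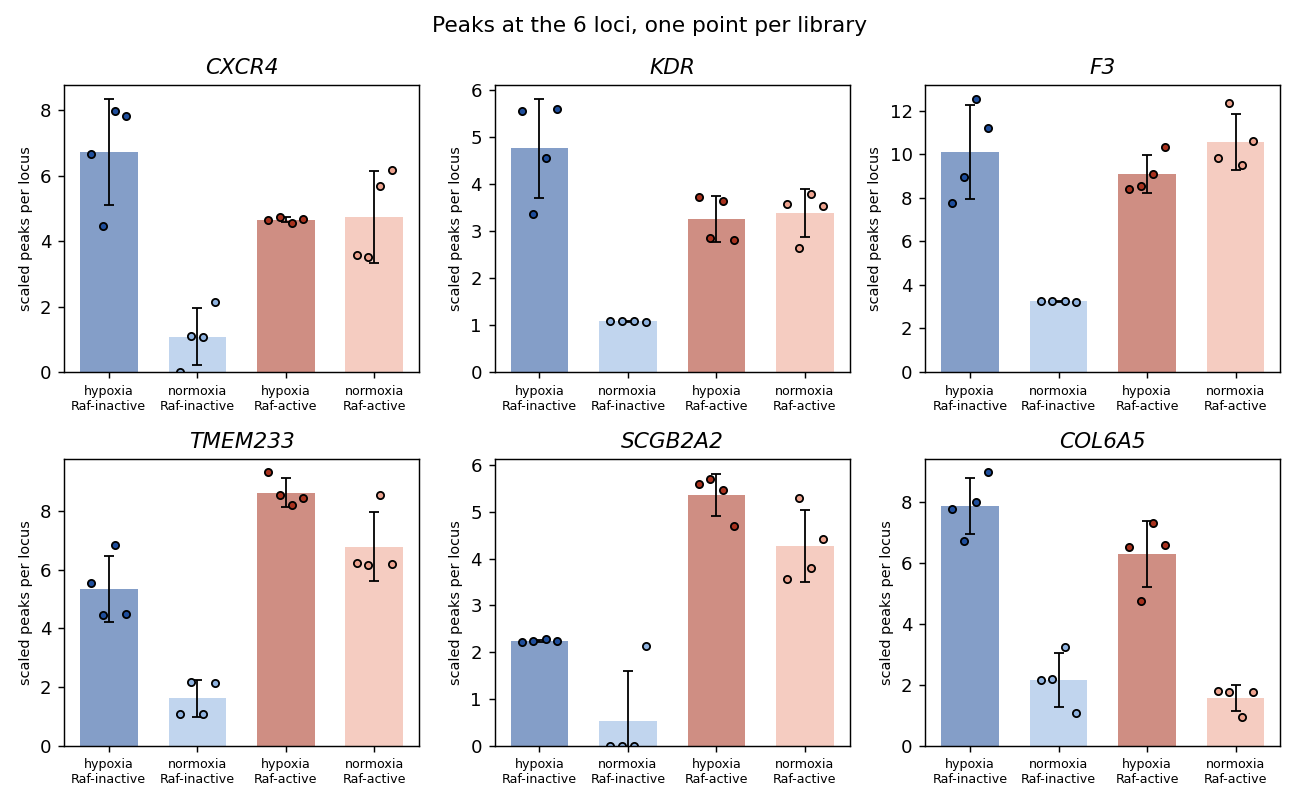
Scaled peaks per locus (y axis, from 0) in each library (points) of the 4 groups (x axis), with bars for the mean and error bars for the SD of 4 libraries. The hypoxic Raf-inactive libraries stand above the normoxic ones at all 6 loci, the contrast used to choose them, while in Raf-active cells COL6A5 is the locus whose 2 oxygen groups do not overlap.

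Hypoxia in Raf-active cells compares 8 other libraries, so it is the comparison that can test these loci. The scaling, the filter and the spread in the fit came from all 16 libraries, including those that chose the loci. In that comparison COL6A5 gained peaks, and the other 5 did not pass the test: 1 of 6 loci, against 27.9% of all tested loci called in either direction, 13.7% as gaining and 14.2% as losing peaks. COL6A5 was also the 1 locus of the 6 whose hypoxic libraries all stood above the normoxic ones, which 15.2% of tested loci did. By kb covered in place of peak number, COL6A5 and TMEM233 were called as higher and F3 as lower, against 42.1% of loci called by that measure, 19.8% as higher and 22.4% as lower. Other ways of counting called a gain in peak number at TMEM233 and, with a wider locus, at CXCR4. A fall in peak number was called at F3 with thinned peaks and with lists of equal length. The values are given with each locus.

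CXCR4, on chromosome 2 from 136114349 to 136118149, had 6, 4, 7 and 7 peaks in hypoxic Raf-inactive cells, against 0, 1, 1 and 2 in normoxic ones. It had 5 peaks in each of the 4 hypoxic Raf-active libraries, against 4, 4, 6 and 7 in the normoxic Raf-active ones. The Raf-inactive normoxic group alone stood apart, and the other 3 groups overlapped in sequence from the highest, hypoxic Raf-inactive at 6.74 ± 1.62 scaled peaks, through normoxic Raf-active at 4.75 ± 1.40 to hypoxic Raf-active at 4.66 ± 0.08 (SD, n = 4 each). In Raf-active cells the log2 change was 0.01 ± 0.25 (SE; limma adjusted p 0.977), with a 95% interval of -0.50 to 0.53. With the locus widened to 50 kb on each side it became a called gain of 0.48 (adjusted p 0.0224).

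Peak number hides what the CXCR4 peaks looked like. The 9 merged regions of the locus, numbered from the low coordinate up, include the promoter (region 6, 136117414 to 136118750) and a site just upstream (region 7, 136118807 to 136119825, summit 1.16 kb before the start). In hypoxic Raf-inactive cells the promoter was called as 2 to 3 separate peaks per library and region 7 as 1 to 2, while in hypoxic Raf-active cells each was 1 peak. Peaks covered 1.89 to 2.27 kb in hypoxic and 0 to 1.04 kb in normoxic Raf-inactive cells, and 3.54 to 3.86 kb in hypoxic and 2.94 to 3.26 kb in normoxic Raf-active cells. The hypoxic Raf-active libraries thus covered more sequence than the hypoxic Raf-inactive ones, although their mean peak number was lower.

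Summit pileup, the stack of sequenced fragments or reads at a peak's highest point, was divided by the library's background to compare heights. At the CXCR4 promoter it was 6.02 to 8.25 in hypoxic Raf-inactive cells, whereas only 2 normoxic Raf-inactive libraries had a peak, at 5.72 and 7.74. It was 23.9, 25.3, 22.6 and 24.7 in hypoxic Raf-active cells, against 9.40, 15.5, 18.2 and 16.9 in normoxic ones, with no overlap. The upstream region 7 reached 30.2, 29.2, 37.9 and 31.6 in hypoxic Raf-active cells, against 11.2, 11.5, 14.5 and 14.4 in normoxic ones. Another site downstream of the gene (region 3, 136112328 to 136114025) was called in all 8 Raf-active libraries and in no Raf-inactive one. It stood at 34.9 ± 2.54 in hypoxia and 28.7 ± 2.57 in normoxia (SD, n = 4 each).

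Among 129700 regions called in all 8 Raf-active libraries, summit pileup rose at all 3 such CXCR4 regions, where 25.8% of all these regions rose and 34.1% fell. The log2 change was 1.33 ± 0.12 (SE) at region 7 (limma adjusted p 4.14e-11), 0.73 ± 0.15 at the promoter (adjusted p 6.34e-05) and 0.28 ± 0.10 at region 3 (adjusted p 0.0125). Taken as the authors' listed fold over local background instead, region 7 kept its direction at 0.52 (adjusted p 0.00217), while the promoter was at -0.01 (adjusted p 0.949) and region 3 at -0.21 (adjusted p 0.114). The local background under the promoter peak was itself 5.46 to 5.70 times the library background in hypoxic Raf-active cells and 2.86 to 3.56 times in normoxic ones; its part in the difference was not tested. Without the hypoxic Raf-active replicate 2, the region 3 call was lost (adjusted p 0.0535). Region 9, 9.81 kb upstream of the start (136127835 to 136128094), was called in 4 of 4 hypoxic Raf-active libraries, at 8.72 to 9.92 times background, and in none of the other 12.

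**Figure D2:**
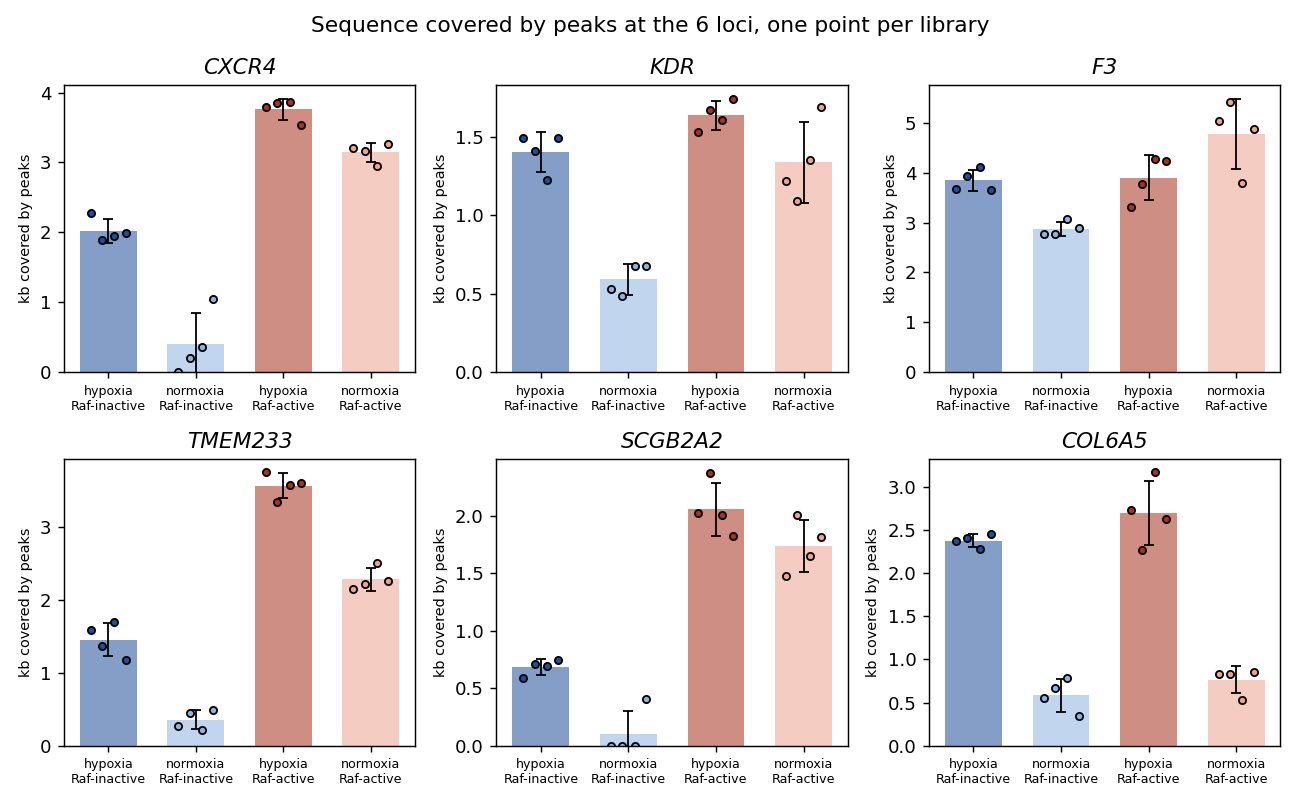
Kb covered by peaks at each locus (y axis, from 0) in each library (points) of the 4 groups (x axis), with bars for the mean and error bars for the SD of 4 libraries. At CXCR4 the hypoxic Raf-active libraries cover the most sequence, 3.54 to 3.86 kb, although their peak number is 5 in each.

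KDR, on chromosome 4 from 55078481 to 55125595, had 5, 3, 4 and 5 peaks in hypoxic Raf-inactive cells, against 1 in each normoxic Raf-inactive library. With Raf active it had 4, 3, 4 and 3 peaks in hypoxia, against 4, 3, 4 and 4 in normoxia. The single peak of the normoxic Raf-inactive cells was the promoter (region 6, 55125092 to 55126178), which all 16 libraries shared. In scaled peaks the order was hypoxic Raf-inactive at 4.77 ± 1.05, normoxic Raf-active at 3.39 ± 0.51, hypoxic Raf-active at 3.26 ± 0.49 and normoxic Raf-inactive at 1.08 ± 0.01 (SD, n = 4 each), and only the last stood apart from its neighbour. In Raf-active cells the log2 change was -0.04 ± 0.14 (SE; limma adjusted p 0.851), with a 95% interval of -0.33 to 0.25.

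The KDR promoter heights of the Raf-inactive groups overlapped, 8.76 to 9.34 times background in hypoxia and 8.23 to 11.7 in normoxia. The regions added there in hypoxia lay inside or beyond the gene, and in hypoxic Raf-inactive replicate 4 the promoter was called as 2 peaks. Region 4, 9.06 kb into the gene (55116354 to 55116739), was called in all 4 hypoxic and no normoxic Raf-inactive library, as was region 2 near the gene's far end (55079029 to 55079342), which no Raf-active library had. In Raf-active cells the promoter reached 8.72, 12.4, 11.4 and 12.7 in hypoxia, against 6.90, 6.16, 5.91 and 9.01 in normoxia, and 1 hypoxic library lay within the normoxic range. The log2 change of this height was 0.70 ± 0.17 (SE; limma adjusted p 0.000665). Region 4 rose by 0.76 ± 0.18 (adjusted p 0.00049), at 7.89 to 9.36 in hypoxic and 3.82 to 6.41 in normoxic Raf-active cells, while region 1 beyond the gene's end (55069266 to 55069659) had a change of 0.15 ± 0.18 (adjusted p 0.491). Both KDR calls held with the listed fold over local background (0.69 and 0.76).

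F3, on chromosome 1 from 94529173 to 94541759, had 7, 8, 11 and 10 peaks in hypoxic Raf-inactive cells, against 3 in each normoxic Raf-inactive library. With Raf active it had 9, 9, 10 and 11 in hypoxia, against 11, 14, 10 and 12 in normoxia. The order in scaled peaks was normoxic Raf-active at 10.6 ± 1.28, hypoxic Raf-inactive at 10.1 ± 2.16, hypoxic Raf-active at 9.09 ± 0.88 and normoxic Raf-inactive at 3.24 ± 0.03 (SD, n = 4 each), and the last alone stood apart. In Raf-active cells the log2 change was -0.19 ± 0.12 (SE; limma adjusted p 0.228), with a 95% interval of -0.44 to 0.05. It became a called fall of 0.53 with listed peaks thinned to the same background (adjusted p 0.00156) and of 0.46 with lists of equal length (adjusted p 0.00834). With kb covered in place of peak number the fall was 0.29 (adjusted p 0.00094).

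The regions of the F3 locus differed in direction on the scale of pileup over library background. More peaks were called, but the 2 tallest sites of normoxic Raf-inactive cells were lower in hypoxic ones. Region 4, just beyond the gene's end (94527058 to 94529250, summit 13.7 kb downstream of the start), stood at 21.7, 27.9, 16.2 and 17.9 times background in hypoxic Raf-inactive cells, against 69.8, 59.4, 67.3 and 64.9 in normoxic ones. The promoter (region 10, 94541341 to 94542196), whose summit lies 183 bases before the start and near the AP-1 motifs printed above, stood at 72.1 to 75.7 in hypoxic and 77.5 to 89.6 in normoxic Raf-inactive cells. Neither pair of groups overlapped on this scale, but the share of all regions without overlap in Raf-inactive cells was not measured. The library background that divides these heights was higher in the hypoxic group, as given above. By the authors' listed fold over local background both pairs overlapped. Region 4 was at 3.89 to 4.67 in hypoxic and 4.32 to 4.95 in normoxic Raf-inactive cells. The promoter was at 8.77 to 10.3 in hypoxic and 9.58 to 10.8 in normoxic ones. The 4 regions called in every hypoxic and no normoxic Raf-inactive library (regions 2, 3, 11 and 13) were lower sites, at 6.02 to 34.1 times background; 1.26% of all merged regions were gained in that way in this contrast. Region 3 lies within 1 kb of region 4. Local background at region 4 was 3.66 to 5.89 times the library background in hypoxic and 13.4 to 15.2 times in normoxic Raf-inactive cells, and its part in which neighbours were called was not tested. The F3 window also reaches that of ABCD3, a peroxisomal transporter gene, which changed by 0.07 in hypoxic Raf-active cells (limma adjusted p 0.581). Covered length at F3 differed less than peak number, with 3.66 to 4.11 kb in hypoxic and 2.78 to 3.07 kb in normoxic Raf-inactive cells.

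**Figure D3:**
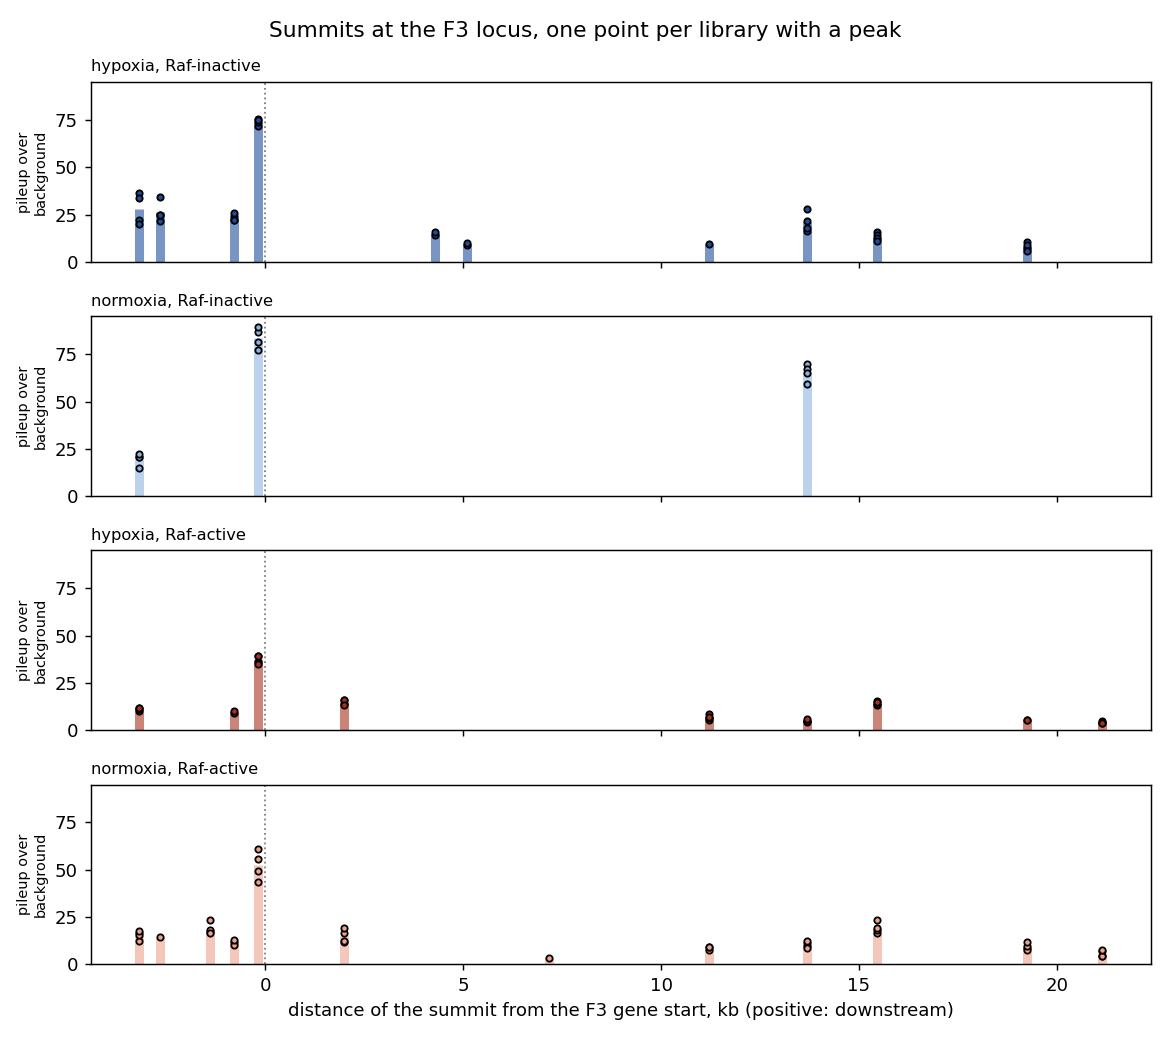
Summit pileup over library background (y axis) at each F3 region, by distance of its median summit from the gene start (x axis, kb), with bars for the mean of libraries that have a peak and points for each such library. The peak at 13.7 kb stands at 16.2 to 27.9 in hypoxic and 59.4 to 69.8 in normoxic Raf-inactive cells, and is below 13 in both Raf-active groups.

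Heights at F3 were tested with hypoxia in Raf-active cells, in libraries that did not choose the locus. Of 6 regions called in all 8 Raf-active libraries, 4 fell and none rose, against 34.1% and 25.8% of all regions tested. Region 4 was at 4.15, 4.90, 4.80 and 5.73 in hypoxic Raf-active cells, against 9.69, 11.2, 8.54 and 12.4 in normoxic ones, a log2 change of -1.09 ± 0.17 (SE; limma adjusted p 2.17e-06). At the promoter the heights were 36.0, 35.2, 39.1 and 39.4 in hypoxia, against 43.3, 49.1, 55.7 and 61.1 in normoxia, a change of -0.47 ± 0.09 (adjusted p 4.51e-05). Regions 3 and 14 fell by 0.43 each (adjusted p 0.00487 and 0.00847). Regions 1 and 9 did not pass the test, at -0.40 (adjusted p 0.0957) and 0.02 (adjusted p 0.901), though region 1 passed as lower without the normoxic Raf-active replicate 2 (adjusted p 0.0465) or 3 (adjusted p 0.0357). With the listed fold over local background region 4 (-0.39) and the promoter (-0.23) stayed called as lower, region 14 was at -0.10 (adjusted p 0.508), and region 3 turned to a called rise of 0.30.

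TMEM233, on chromosome 12 from 119593774 to 119654295, had 5, 4, 6 and 4 peaks in hypoxic Raf-inactive cells, against 1, 2, 1 and 2 in normoxic ones. With Raf active it had 10, 9, 9 and 9 in hypoxia, against 7, 7, 9 and 7 in normoxia. This locus had more peaks with Raf active than inactive in each oxygen state, and the order ran hypoxic Raf-active at 8.63 ± 0.49 scaled peaks, normoxic Raf-active at 6.79 ± 1.17, hypoxic Raf-inactive at 5.34 ± 1.13 and normoxic Raf-inactive at 1.62 ± 0.62 (SD, n = 4 each). Only the last group did not overlap its neighbour. In Raf-active cells the log2 change of peak number was 0.32 ± 0.15 (SE; limma adjusted p 0.130), and 1 normoxic library, replicate 3, reached the hypoxic range. It became a called gain of 0.59 with listed peaks thinned to the same background (adjusted p 0.0036). The gain was 0.67 with lists of equal length (adjusted p 0.0079) and 0.41 with kb covered (adjusted p 0.000525). It was also called with peaks of a -log10 q of at least 5 (0.39, adjusted p 0.0297) and in a fit of the 8 Raf-active libraries alone (0.32, adjusted p 0.0379).

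The tallest TMEM233 sites lie near the gene's low-coordinate end and inside the gene; the strand is not given in the tables used here, so distances are from that end. Region 2 (119592215 to 119592634, 1.39 kb outside the gene) was at 33.8, 32.5, 32.5 and 28.8 times background in hypoxic Raf-active cells, against 7.49, 7.16, 7.72 and 8.59 in normoxic ones. Its log2 change of 2.04 ± 0.13 (SE; limma adjusted p 2.96e-15) was the largest among the 23 member regions tested. Region 5, 19.7 kb into the gene (119613259 to 119613940), was at 32.8, 29.9, 35.2 and 27.9 in hypoxia, against 8.66, 16.8, 12.8 and 15.9 in normoxia, a change of 1.26 ± 0.15 (adjusted p 5.21e-09). In Raf-inactive cells region 5 was called in all 4 hypoxic libraries, at 7.82 to 18.7, and in no normoxic one, whereas region 2 was called in 2 hypoxic libraries and 1 normoxic one.

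Region 4 of TMEM233 rose by 1.06 ± 0.18 (limma adjusted p 8.61e-06), while regions 1, 8 and 12 did not pass the test (0.24, 0.26 and 0.04). Centred on the median over all regions, region 1 was called as higher (0.30, adjusted p 0.0492), and its groups did not overlap. Region 12 (119659342 to 119659629) was the 1 site of this locus called in all 16 libraries. With the listed fold over local background regions 2 and 5 stayed called at 0.77 and 0.74, region 4 was at -0.12 (adjusted p 0.474) and region 1 turned to a called fall of 0.68. Local background at region 2 was 2.68 to 3.08 times the library background in hypoxic Raf-active cells and 1.11 to 1.21 times in normoxic ones. The windows of TMEM233 and PRKAB1, the gene of an AMPK subunit, overlap. PRKAB1 fell by 0.45 in hypoxic Raf-active cells (adjusted p 0.00403).

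SCGB2A2, on chromosome 11 from 62270158 to 62273160, had 2 peaks in each hypoxic Raf-inactive library, against 0, 0, 0 and 2 in normoxic ones. With Raf active it had 6, 6, 6 and 5 in hypoxia, against 4, 6, 4 and 5 in normoxia. The order was hypoxic Raf-active at 5.36 ± 0.46 scaled peaks, normoxic Raf-active at 4.27 ± 0.77, hypoxic Raf-inactive at 2.24 ± 0.03 and normoxic Raf-inactive at 0.53 ± 1.06 (SD, n = 4 each). Before scaling, normoxic Raf-inactive replicate 4 equalled the hypoxic libraries, so those 2 groups are apart only by the scaling to equal totals. In Raf-active cells the log2 change was 0.28 ± 0.26 (SE; limma adjusted p 0.449), with a 95% interval of -0.25 to 0.81, and it turned to values between -0.21 and -0.03 under 5 of the alternatives.

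SCGB2A2 regions 1 to 4 lie upstream of the gene and regions 5 to 7 beyond its far end, and none lies over its start. Regions 1 and 2 (62263934 to 62264785 and 62266530 to 62266954), with summits 5995 and 3422 bases before the start, were among the tallest sites of the 6 loci in Raf-active cells. Region 2 was at 70.7, 76.3, 68.0 and 75.2 times background in hypoxic Raf-active cells, against 47.1, 54.5, 50.4 and 49.7 in normoxic ones. Region 1 was at 62.7 to 73.4 in hypoxic and 46.3 to 54.9 in normoxic Raf-active cells. In Raf-inactive cells the same sites were at 5.21 to 14.8 in hypoxia and were called in 1 of 4 normoxic libraries, at 4.00 and 4.29.

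Hypoxia in Raf-active cells raised the 3 upstream sites that could be tested for height. The log2 changes were 0.42 ± 0.08 (SE) at region 1, 0.52 ± 0.07 at region 2 and 1.26 ± 0.10 at region 3, 62267086 to 62267383 (limma adjusted p 1.42e-05, 1.68e-07 and 3.06e-12). Upstream region 4, 1.36 kb before the start, was called in 3 hypoxic libraries and 1 normoxic library of Raf-active cells and could not be tested. Region 5, 4.00 kb downstream of the start (62273819 to 62274321), fell by 1.33 ± 0.18 (adjusted p 1.51e-07), with 3.18, 2.91, 3.60 and 3.91 in hypoxic Raf-active cells, against 8.52, 9.02, 7.56 and 9.01 in normoxic ones. The locus thus held a rise upstream and a fall downstream in the same libraries. With the listed fold over local background regions 3 (0.71) and 5 (-1.14) kept their calls, while regions 1 and 2 were at -0.19 (adjusted p 0.0503) and -0.03 (adjusted p 0.764). Local background at region 2 was 6.88 to 7.62 times the library background in hypoxic and 4.59 to 5.17 times in normoxic Raf-active cells.

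COL6A5, on chromosome 3 from 130345672 to 130484846, had 7, 6, 7 and 8 peaks in hypoxic Raf-inactive cells, against 2, 2, 3 and 1 in normoxic ones. With Raf active it had 7, 5, 8 and 7 in hypoxia, against 2, 2, 1 and 2 in normoxia. Hypoxic groups stood above normoxic ones in both Raf states, with no overlap between 6.28 ± 1.08 scaled peaks in hypoxic and 1.57 ± 0.41 in normoxic Raf-active cells (SD, n = 4 each). The log2 change there was 1.51 ± 0.18 (SE; limma adjusted p 3.71e-06), with a 95% interval of 1.14 to 1.88, and an exact two-sided permutation test gave 0.0286, the smallest p that 4 against 4 allows. Across the alternatives that leave out 1 library it lay between 1.38 and 1.61. The order of the groups was hypoxic Raf-inactive at 7.85 ± 0.92, hypoxic Raf-active, normoxic Raf-inactive at 2.16 ± 0.89 and normoxic Raf-active, and the 2 normoxic groups overlapped, as did the 2 hypoxic ones.

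At COL6A5 hypoxia added 4 regions when Raf was active and 2 when it was not, 1 of them shared. Region 5 (130386678 to 130387020, 41.2 kb into the gene from its low-coordinate end) was the 1 region of all 6 loci called in every hypoxic and no normoxic library in both states, at 4.18 to 6.17 times background in Raf-inactive and 4.43 to 5.82 in Raf-active hypoxia. Region 6 (130395490 to 130396461) was the tallest site of the locus in Raf-inactive cells, at 31.1, 41.4, 34.8 and 33.8 in hypoxia, against 7.25, 7.63, 8.63 and 8.86 in normoxia. The same region was at 6.23, 4.75, 9.12 and 4.61 in hypoxic Raf-active cells and had no peak in any normoxic Raf-active library. Regions 2 and 3 were called in 4 of 4 hypoxic Raf-active libraries and in none of the other 12.

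Region 1 of COL6A5 (130340736 to 130341840, 4.17 kb outside the gene) was called in all 8 Raf-active libraries and could be tested for height. It stood at 23.8, 22.7, 22.1 and 22.9 in hypoxic Raf-active cells, against 11.3, 11.2, 10.8 and 10.3 in normoxic ones, a log2 change of 1.07 ± 0.12 (SE; limma adjusted p 4.73e-09). In Raf-inactive cells it was at 4.78 to 6.58 in hypoxia and was not called in normoxia. Region 9 (130480791 to 130481092), near the gene's high-coordinate end, was called in 4 hypoxic and 3 normoxic Raf-inactive libraries and in no Raf-active one.

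**Figure D4:**
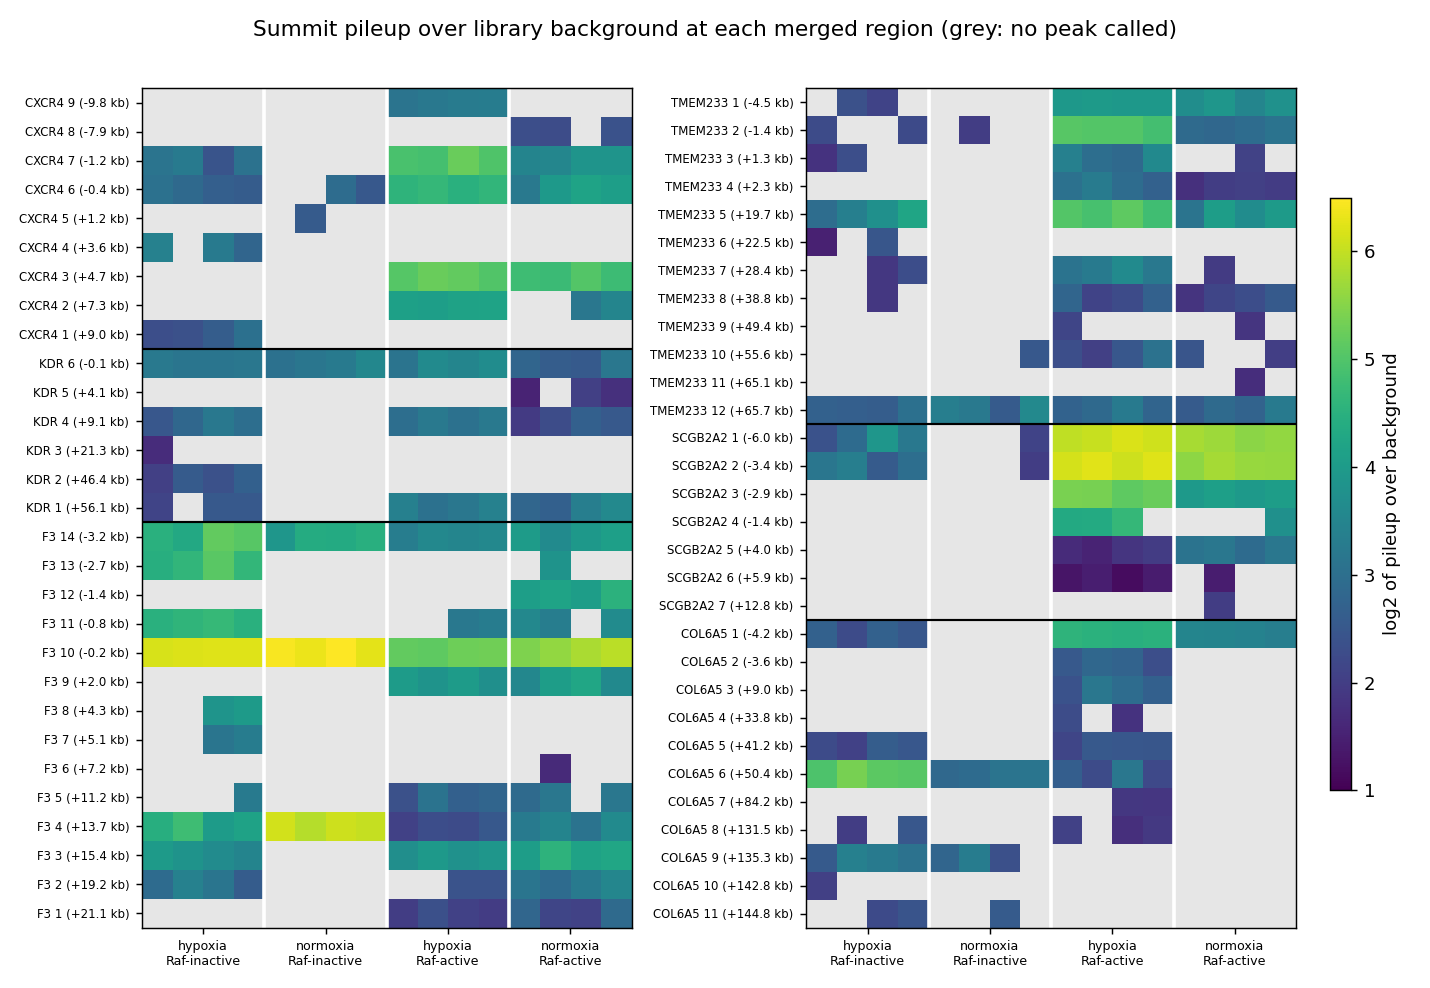
Log2 of summit pileup over library background (colour) at each merged region of the 6 loci (rows, with the distance of its median summit from the gene start, or from the low-coordinate end for TMEM233 and COL6A5) in the 16 libraries (columns, 4 per group). Grey cells have no called peak, which covers most regions of the normoxic Raf-inactive libraries, while F3 regions 10 and 4 are the brightest there.

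The 6 loci together held 59 merged regions, of which 5 were called in all 16 libraries. With hypoxia in Raf-active cells 5 regions were gained, meaning called in 4 of 4 hypoxic and 0 of 4 normoxic libraries: 4 at COL6A5 and 1 at CXCR4. Over all 355405 regions 3.11% were gained. With a listed fold of at least 5 for a peak, 1 was gained, at TMEM233 and at none of the other loci, against 2.03% of all regions. With thinned peaks 4 were gained, 2 of them at COL6A5, against 2.10% of all regions. With at least 3 of 4 against at most 1 of 4 libraries 10 were, against 6.87%.

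By height, 12 of the 23 regions that could be tested rose with hypoxia in Raf-active cells and 5 fell, or 52.2% and 21.7%. Over all regions tested 25.8% rose and 34.1% fell, and the median region changed by -0.06. The hypoxic libraries all lay above the normoxic ones at 11 of the 23 and all below at 5, against 22% and 29.1% over all regions. Regions of a locus share their libraries and often their local background, so they are not independent. Rises were found at 5 of the 6 loci, with F3 as the exception. With the listed fold over local background 8 of the 23 rose and 4 fell, against 19.8% and 24.9% of all regions.

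**Figure D5:**
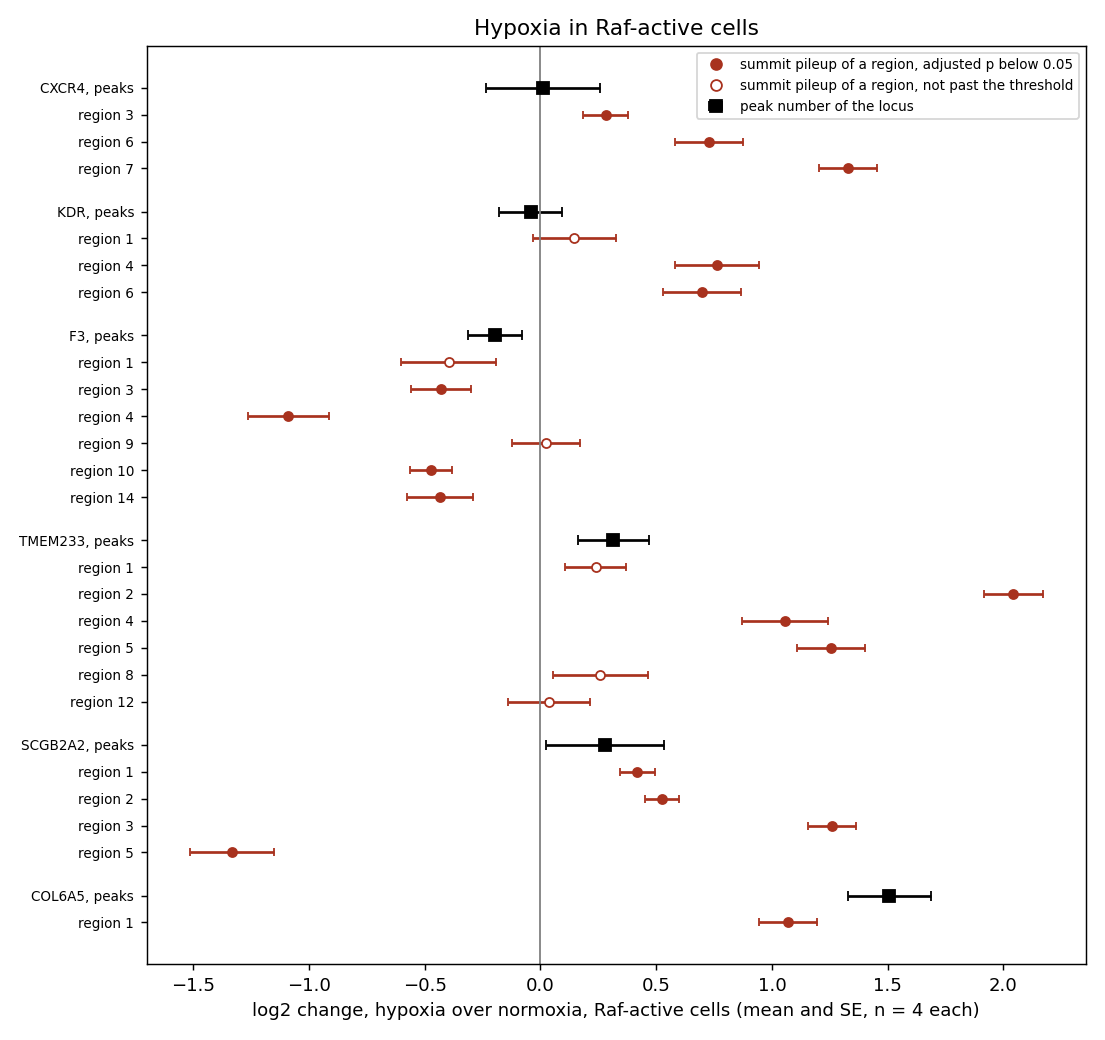
Log2 change of hypoxia over normoxia in Raf-active cells (x axis) for the scaled peak number of each locus (black squares) and for summit pileup at its regions called in all 8 libraries (circles, filled where the adjusted p is below 0.05), with SE bars. The change in peak number of CXCR4 sits at 0.01 while its 3 regions sit at 0.28, 0.73 and 1.33; 5 of the 6 F3 regions lie left of 0.

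Set against Raf-inactive cells, Raf-active ones in normoxia had more peaks at 5 of the 6 loci, with log2 changes of 1.98 for SCGB2A2, 1.59 for TMEM233, 1.55 for CXCR4, 1.44 for F3 and 1.07 for KDR, and -0.27 for COL6A5. In hypoxia the Raf changes were 0.97 for SCGB2A2, 0.62 for TMEM233, -0.12 for F3, -0.29 for COL6A5, -0.42 for CXCR4 and -0.42 for KDR. These share libraries with the contrast that chose the loci and are given as a description. The normoxic Raf-inactive group that was low in the choosing contrast is the one these normoxic Raf changes are also measured from.

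By likeness of pattern, measured as the root mean square difference between log2 values centred on each locus's mean over the 16 libraries, the 2 nearest loci on other chromosomes were taken for each member. The 16 libraries include those of the contrast that chose the members, so nearness of 1 member to another is partly set by that choice. CXCR4 was nearest to KDR (0.41) and F3 (0.45), where the median over loci was 0.87. KDR was nearest to SLC22A31 (0.26) and KISS1R (0.29), F3 to ZNF91 (0.26) and IGFBP5 (0.30), and TMEM233 to GOLGA7 (0.31) and KRTAP5-4 (0.31). SCGB2A2 was nearest to ZNF831 (0.39), whose hypoxic Raf-active libraries averaged 15.6 scaled peaks against 9.22 in normoxic ones, and to TMEM233 (0.40). COL6A5 was nearest to EBF2 (0.43) and AGBL4 (0.44), which were also higher in hypoxia with Raf active, at 0.77 and 1.39 on the log2 scale.

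Other genes of the members' pathways are given by their counts, to be read against the 13.7% of all tested loci that rose and the 14.2% that fell with hypoxia in Raf-active cells. Of 9 loci of VEGF ligands and receptors, 1 rose, VEGFD at 0.68, which encodes a lymphatic growth factor, and 1 fell, the co-receptor NRP1 at -0.24, with a median of -0.02. Of 11 chemokine receptor and CXCL12-axis loci tested, 3 rose and 1 fell. The largest were CXCR6, the receptor of CXCL16, at -0.83, and ACKR4, a scavenging receptor, at 0.60. Of 18 coagulation and fibrinolysis loci, none rose and 2 fell, prothrombin (F2) at -0.45 and tissue plasminogen activator (PLAT) at -0.40, by the limma test with adjusted p of 0.0186 and 0.00921. Over all tested loci the median change was -0.02.

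In the list of collagen VI and basement membrane collagens 5 of 13 loci rose and none fell, against 13.7% and 14.2% of all tested loci, with a median of 0.10. Neighbouring genes can share peaks between their windows. This was not examined within the lists, so the loci of a list need not be independent of each other or of the members. COL6A6, which encodes the alpha-6 chain of collagen VI, had 8.85 ± 1.14 scaled peaks in hypoxic and 2.03 ± 0.42 in normoxic Raf-active cells (SD, n = 4 each), a log2 change of 1.71 ± 0.11 (SE; limma adjusted p 3.3e-09). COL4A3, a basement membrane chain, had 2.33 ± 0.93 in hypoxic and 0.22 ± 0.44 in normoxic ones, a change of 1.47 ± 0.19. In Raf-inactive cells the same loci changed by 0.22 and 0.49 and did not pass the test (limma adjusted p 0.200 and 0.0934). The difference between the changes in Raf-active and Raf-inactive cells was 1.48 at COL6A6 and 0.99 at COL4A3. Both loci were named for their large changes in Raf-active cells, so this difference is given as a description with no test.

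Of the 2 secretoglobin loci with enough peaks, SCGB2B2 rose by 0.68 in hypoxic Raf-active cells (limma adjusted p 0.00116) and fell by 0.64 in hypoxic Raf-inactive ones (adjusted p 0.00578). Of 11 dispanin family loci 1 rose, the synapse gene SYNDIG1 at 0.68, and 1 fell, TMEM91 at -0.33. Of 38 HIF target loci 6 rose and none fell, against 13.7% and 14.2% of all tested loci, led by EGLN3, the oxygen-sensing prolyl hydroxylase, at 1.68 ± 0.11 (SE) and by PGK1, a glycolytic kinase, at 0.84 ± 0.14, yet the median of the list was -0.01. EGLN3 had 5.14 ± 0.61 scaled peaks in hypoxic and 0.90 ± 0.03 in normoxic Raf-active cells (SD, n = 4 each), and it also rose in hypoxic Raf-inactive cells (0.83, adjusted p 9.03e-05).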

How the data were processed

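ATAC-seq was done on IMR90 fibroblasts in 16 libraries (4 groups of 4). Reads were processed with cutadapt, FastQC, Bowtie2, Picard and SAMtools, and with MACS2, bedtools and deepTools, on hg38, per the submitters' processing notes; versions and settings are not given in the sources used here. The authors deposited 1 narrowPeak list per library, whose columns hold a score, the fold (ratio) over local background, and -log10 p and -log10 q values. Lines with the same interval were merged on chromosomes 1 to 22 and X. The whole-number pileup and local background at each summit were recovered from fold and -log10 p (tolerance 0.005; at least 99.96% of summits). Library background is the commonest lowest local background; no read totals are given.

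Peaks per locus (RefSeq gene body plus 10 kb) were scaled to equal totals over loci, taken as log2 of the value plus 1, filtered to a mean of at least 3 and fitted in limma 3.58.1 (R 4.3.3) over 4 group means with a trended spread, with Benjamini-Hochberg adjustment. Fold changes on this scale understate the change of loci near 0. Merged regions came from bedtools 2.31.1; the test of summit pileup at regions called in all 8 Raf-active libraries was added after seeing the data. Fits were tested on simulated data. Members, gene lists and tests were chosen with earlier results of these data known. Named loci were the members, their 2 nearest in pattern, window neighbours, the 2 largest called of each list, the next 2 by rank, and, per member, the regions of highest -log10 p or gained in both Raf states; other member regions were named after their values were seen.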

Additional observations from a re-analysis of the deposited data

Results flagged for a closer look

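In 5 of 70 groups of 4 libraries examined, 1 library passed a cutoff for distance from the other 3. For continuous values that cutoff flags about 1 group in 20. Peak counts are small whole numbers, and where 3 of them tie, a difference of 1 peak can pass it, so that rate does not hold for them. The normoxic Raf-active replicate 3 was the library in 3 of the 5 groups. It had 8.54 scaled peaks at TMEM233, where the other 3 libraries had 6.18 to 6.24, and 0.949 at COL6A5, where the others had 1.76 to 1.78. Its summit at CXCR4 region 3 was 32.5 times background, against 27.1 to 27.7 in the others. Its list was the shortest of its group, at 190378 peaks, and its background the lowest, at 6.09; their part in these values was not tested. At SCGB2A2 the normoxic Raf-inactive replicate 4 had 2.13 scaled peaks and the other 3 libraries had 0. At TMEM233 region 1 the hypoxic Raf-active replicate 2 stood at 16.1 times background, a little above the other 3 at 15.4.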

How the results depend on the processing

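COL6A5 kept its direction and its call in Raf-active cells under every alternative tried. CXCR4 turned to -0.028 without scaling and to -0.27 with 2 kb on each side, and was called at 0.48 with 50 kb. KDR turned to 0.031 with a -log10 q of at least 5, 0.20 with at least 5-fold enrichment, 0.047 with 50 kb, 0.12 with thinning (0.080 without scaling), 0.14 with equal list length and 0.13 with kb covered. F3 was called at -0.53 with thinning (-0.59 without scaling), -0.46 with equal lists and -0.29 with kb covered. TMEM233 was called at 0.39 (-log10 q of at least 5), 0.59 (thinning; 0.54 without scaling), 0.67 (equal lists), 0.41 (kb covered) and 0.32 (8 libraries). SCGB2A2 turned to -0.031 (-log10 q), -0.11 (5-fold), -0.16 (thinning; -0.21 without scaling) and -0.11 (equal lists). The cause of these shifts was not tested. Thinning without scaling, a fit without a trended spread and the alternatives for summit pileup were chosen after seeing the data.

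Leaving out 1 library gave -0.092 to 0.13 for CXCR4, -0.13 to 0.0081 for KDR, -0.25 to -0.12 for F3, 0.28 to 0.42 for TMEM233, 0.21 to 0.37 for SCGB2A2 and 1.38 to 1.61 for COL6A5, and 3583 to 4293 called loci, against 4211 with all libraries and 6368 with kb covered. Same-numbered libraries did not deviate together (correlations -0.04 to 0.02 over 24 pairs). A replicate block, for numbers that share only a label, left the member changes as they were, with 4132 loci called; COL6A5 stayed at 1.51 under the block and the other 5 stayed past no threshold.

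In Raf-inactive cells the description moved with at least 5-fold enrichment to 0.50 for CXCR4, 0.65 for KDR, 0.54 for F3, 0.83 for TMEM233 and 0.48 for COL6A5. With kb covered it was 1.23, 0.63, 0.32, 0.91 and 1.15 in the same order, and 0.68 for SCGB2A2. With 2 kb on each side it was 1.22 for KDR, 0.87 for F3, 1.64 for TMEM233, 0.0 for SCGB2A2 and 1.00 for COL6A5. With 50 kb it was 0.75 for KDR, 0.59 for F3, 0.54 for TMEM233, 0.51 for SCGB2A2 and 1.15 for COL6A5. A pseudocount of 0.5 gave 1.71 for KDR and 1.86 for SCGB2A2, and thinning without scaling 1.24 for KDR and 1.18 for COL6A5.

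Gained member regions numbered 5 (3.11% of all regions were gained), but 10 with at least 3 of 4 against at most 1 of 4 (6.87% of all). They numbered 1 with at least 5-fold enrichment, at TMEM233 (2.03% of all), and 4 with thinning (2.10% of all). With a library left out they numbered 5 to 7. For summit pileup, the listed fold over local background reversed F3 region 3 (0.30), SCGB2A2 regions 1 and 2 (-0.19 and -0.029), TMEM233 regions 1 and 4 (-0.68 and -0.12) and CXCR4 regions 3 and 6 (-0.21 and -0.013). With a library left out, F3 region 9 ran from -0.082 to 0.15 and TMEM233 region 12 from -0.079 to 0.17. The recovered background, which stands in for depth, was lowest in normoxic Raf-inactive cells. Its part in which weak sites were called was not tested.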
